A study of Arabidopsis thaliana with 3 samples.

Results

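NLR immune receptor genes are described here across the 3 groups of a seedling experiment on GIP1 and GIP2. They were taken as all genes whose description in the deposited tables names a disease resistance protein, a TIR-NBS or an NB-ARC domain, with descriptions of WRKY proteins left out. The rule found 161 of the 30271 genes in the tables. The description gave the class TIR-NBS-LRR for 71 of them, TIR without LRR for 12 and CC-NBS-LRR for 3. A further 3, ADR1, ADR1-L1 and ADR1-L2, were set apart as helpers, and for 72 the class was not stated. Other helper genes, AT5G66900 and AT5G66910 among them, were left in the other classes. The descriptions are broader than the receptor family: AT3G20610, a non-race specific disease resistance protein by its description, and AT5G23400, described as disease resistance protein-like, name no receptor domain.

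NLR proteins are intracellular receptors that detect pathogen effectors, or the host proteins those effectors modify. A nucleotide-binding NB-ARC domain acts as the switch and leucine-rich repeats (LRR) usually form the sensing part, while the N-terminus is either a TIR domain, which acts as an NADase, or a coiled coil (CC). TIR receptors signal through EDS1 with PAD4 or SAG101 and through helper NLRs such as the ADR1 family. Many of these genes lie in tandem clusters, and they are among the genes that differ most between Arabidopsis accessions.

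RNA was measured by stranded, ribosomal-RNA-depleted sequencing of whole Arabidopsis thaliana seedlings 9 days old, with 3 libraries in each of 3 groups. WT was the cross Ws x Col-0. T12 and T34 were populations from a cross of gip1 (GABI_213D01) with gip2 (FLAG_36406), of which T34 is read here as having the more severe root phenotype. Both genes encode small partners of gamma-tubulin, whose complexes nucleate microtubules. Both mutant groups come from the same cross and share the same WT libraries as controls, so the comparisons with WT are not independent of each other. GABI lines are in the Col-0 accession and FLAG lines in Ws, the reads were aligned to the Col-0 reference (TAIR10), and which parental sequence each library carries at a given receptor gene was not tested. Nothing in the labels says that replicates came from separate cultures, so p-values reflect library-to-library spread, which may be technical. In whole seedlings, fewer cells of a type and less RNA per cell cannot be told apart.

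Libraries held 20963358 to 30438933 reads, but the share from ribosomal RNA was 0.261% to 1.28% in T12, 44.0% to 48.5% in T34 and 22.0%, 95.5% and 48.6% in WT replicates 1, 2 and 3. Its part in the results was not tested. WT replicate 2 kept 645250 nuclear reads outside ribosomal RNA, against 6283526 to 15270752 in the other libraries, so 1 read there was worth 11.7 normalized counts and its values for low genes are coarse. Values without it are given for some of the members whose call or size it changed, not for all. AT1G58410, for instance, was called higher than WT in both mutants only without it. The labels list the library JBB7 under both WT and T34 and JBB6 under no group; the deposited tables hold JBB7 with WT and JBB6 with T34, and they were used so, as WT replicate 1 and T34 replicate 3. Of the targeted genes, GIP1 was not analysed here, and GIP2 was near the limit of detection in every group, with normalized counts of 2.46, 11.7 and 0 in WT, 0.571, 0.641 and 0.561 in T12 and 1.58, 2.24 and 4.19 in T34, which checks no label. Leaf genes RBCS1A and LHCB1.1 and root genes PIN2, CASP1 and EXPA7 had reads in all 9 libraries. RBCS1A had 27234 to 53072 normalized counts in WT, 30134 to 35190 in T12 and 13183 to 15514 in T34. CASP1 had 196 to 367 in WT, 103 to 164 in T12 and 131 to 140 in T34. RBCS1A was thus lower in T34 and CASP1 in both mutants without overlap with WT, while LHCB1.1, PIN2 and EXPA7 overlapped with WT in both mutants. The part of these levels in the results was not tested.

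The sequences below show 250 bases before the RefSeq start of 3 raised members, read 5′ to 3′ on the gene's strand from the TAIR10.1 assembly. They were chosen because their promoters held the most W-box matches in a list of the largest rises, the helpers and some other members. Outside that list, AT1G31540, called higher in both mutants, held 2 matches and AT5G17680, called higher in T34, held 4. Promoters were searched on both strands for the W-box letters TTGACC and TTGACT, the core site of WRKY transcription factors. AT4G19510 (chr4:10633369-10633618, plus strand) and AT4G19520 (chr4:10647281-10647530, minus strand) lie beside RPP2A, and AT4G14370 (chr4:8283536-8283785, minus strand) is described as a TIR-NBS-LRR gene. Each of these promoters held 2 matches, printed in capitals.
AT4G19510: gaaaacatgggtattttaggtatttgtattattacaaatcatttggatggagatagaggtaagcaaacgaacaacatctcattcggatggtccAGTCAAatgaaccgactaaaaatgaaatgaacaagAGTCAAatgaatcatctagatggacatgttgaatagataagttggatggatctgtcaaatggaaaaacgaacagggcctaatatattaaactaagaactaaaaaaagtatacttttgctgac
AT4G19520: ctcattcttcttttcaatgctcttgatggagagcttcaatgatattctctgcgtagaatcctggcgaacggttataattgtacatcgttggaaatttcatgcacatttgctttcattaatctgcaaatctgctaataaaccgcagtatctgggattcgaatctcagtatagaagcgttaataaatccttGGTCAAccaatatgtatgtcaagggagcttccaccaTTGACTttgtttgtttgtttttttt
AT4G14370: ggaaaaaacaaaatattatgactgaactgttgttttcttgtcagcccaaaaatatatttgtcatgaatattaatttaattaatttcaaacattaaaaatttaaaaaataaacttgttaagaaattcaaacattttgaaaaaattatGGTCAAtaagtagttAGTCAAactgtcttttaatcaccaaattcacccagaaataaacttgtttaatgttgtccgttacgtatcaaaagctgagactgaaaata

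A W-box match was present in the promoters of 71 of the 161 NLR genes, or 44.1%, against 28.4% of 27443 nuclear protein-coding genes. Within the family it was found in 37.8% of the 45 members called higher in both mutants, 55.6% of the 27 called lower in both and 48.7% of the 39 called in neither. Over all tested genes the shares were 33.4% of those called higher in both mutants and 23.7% of those called lower in both. The promoters of RPP2A, AT1G72920, AT5G41740, AT1G57630, AT3G44630 and RPP5, which stand among the largest rises in T12, held none. These counts are descriptions of letters in a window and say nothing of binding.

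Another set was printed because its members stand among the largest rises and had letters in common. AT5G41550 (chr5:16620825-16621074, minus strand), AT5G41740 (chr5:16688376-16688625, plus strand) and AT5G41750 (chr5:16693582-16693831, plus strand) are TIR-NBS-LRR genes on chromosome 5, and a run of 14 bases common to all of them is in capitals. The genes and the run were chosen after their values and letters had been seen. It begins at base -167, -124 and -14 from the start of AT5G41550, AT5G41740 and AT5G41750. In AT5G41750 it ends at the last base of the window, so the window may have set its length. Searched on both strands, it occurred in the promoters of these 3 genes and in no other of the 27443. Because the genes were chosen with these letters seen, that count is a description and no test.
AT5G41550: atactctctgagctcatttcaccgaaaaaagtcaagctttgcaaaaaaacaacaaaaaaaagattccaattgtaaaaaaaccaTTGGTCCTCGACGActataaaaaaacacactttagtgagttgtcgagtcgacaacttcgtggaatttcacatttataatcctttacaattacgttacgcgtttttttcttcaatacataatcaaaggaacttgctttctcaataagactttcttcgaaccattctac
AT5G41740: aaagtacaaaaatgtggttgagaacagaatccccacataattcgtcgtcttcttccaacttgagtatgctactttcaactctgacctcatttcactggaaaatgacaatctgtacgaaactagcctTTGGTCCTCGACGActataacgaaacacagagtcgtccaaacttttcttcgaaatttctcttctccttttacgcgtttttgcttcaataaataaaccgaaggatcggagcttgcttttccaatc
AT5G41750: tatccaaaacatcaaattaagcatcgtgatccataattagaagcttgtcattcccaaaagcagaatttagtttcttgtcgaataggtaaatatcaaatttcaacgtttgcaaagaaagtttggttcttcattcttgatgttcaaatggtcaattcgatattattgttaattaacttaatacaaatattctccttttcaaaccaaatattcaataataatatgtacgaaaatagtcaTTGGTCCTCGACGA

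A larger share of NLR genes than of all tested genes was called in both mutants, and the calls went in both directions. Of the 161, 132 had 10 or more normalized counts in at least 3 libraries and were tested. The other 29 had at most 19 reads in any library. Against WT, T12 had 47 members called higher and 31 lower at an adjusted p under 0.05 (limma-trend, adjusted over all 20871 genes tested). That is 59.1% of those tested, where 40.2% of all tested genes were called, 23.1% higher and 17.0% lower. T34 had 56 members higher and 31 lower than WT, 65.9%, where the background was 45.2%, with 25.2% higher and 20% lower. Log2 fold changes ran from -6.29 to 6.82 in T12 and from -6.91 to 6.76 in T34. The median member stood at 0.32 in T12 and 0.35 in T34, beside 0.062 over all tested genes in each. Setting the members without a read in a mutant group to the bound that 3 reads allow left both medians as they were. This could not have moved them, since those members lie below the medians either way.

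Large changes made up much of this. In T12, 24 members had a log2 fold change of at least 2 and 7 of at most -2, beside 7.94% and 1.74% of all tested genes. In T34 these were 26 and 8, beside 8.87% and 2.46%. Of the members, 5 reached a count of 10 in WT libraries alone, and these had to be lower in the mutants. The remaining 127 gave 47 higher and 26 lower in T12 and 56 higher and 26 lower in T34. In both mutants together, 45 members were called higher in each and 27 lower in each, none had opposite calls, and 39 were called in neither. Of all 20871 tested genes, 4171 were called higher in each mutant and 2912 lower in each. Without WT replicate 2, 125 members could be tested and the counts were 51 higher and 27 lower in T12 and 57 higher and 29 lower in T34. All 20584 genes tested in that setting gave 5743 higher and 4438 lower in T12 and 6138 and 5018 in T34. Without both libraries of unclear label, 46 of 126 tested members were higher and 19 lower in T12, and 47 were higher and 23 lower in T34. All 20583 genes tested there gave 4420 higher and 2997 lower in T12 and 4327 and 3073 in T34.

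Summed over the family, NLR reads came to 3025, 3293 and 3234 per 1000000 nuclear reads outside ribosomal RNA in WT replicates 1, 2 and 3. The sums were 3879, 4772 and 4479 in T12 and 4542, 5110 and 5673 in T34. All 6 mutant libraries lay above the WT libraries, and the T12 and T34 ranges overlapped.

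TIR-NBS-LRR genes by description had more rises than falls, and the genes of no stated class had about as many of each. Of 61 tested TIR-NBS-LRR genes, 26 rose and 10 fell in T12, and 30 rose and 9 fell in T34, with median log2 fold changes of 0.66 and 0.77. Of the 56 of no stated class, 17 rose and 19 fell in T12 and 19 rose and 19 fell in T34. Among 9 TIR genes without LRR, 1 rose and 1 fell in T12 and 2 rose and 2 fell in T34. These counts stand beside 23.1% higher and 17.0% lower of all genes in T12 and 25.2% and 20% in T34. The genes of no stated class include RPP2A, RPP4, RPP5, RPS4, RPS6, WRR4 and LAZ5, which are known TIR receptors, so the split is one of descriptions rather than of receptor classes. The difference between classes was not tested. By chromosome, T12 members split 10 higher to 17 lower of 46 tested on chromosome 1, 7 to 0 of 10 on chromosome 3, 15 to 1 of 24 on chromosome 4 and 14 to 11 of 48 on chromosome 5. All tested genes split 1183 to 989 on chromosome 1, 942 to 654 on chromosome 3, 760 to 491 on chromosome 4 and 1079 to 807 on chromosome 5. The 17 lower members on chromosome 1 include the 5 that reached a count of 10 in WT libraries alone.

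**Figure D1:**
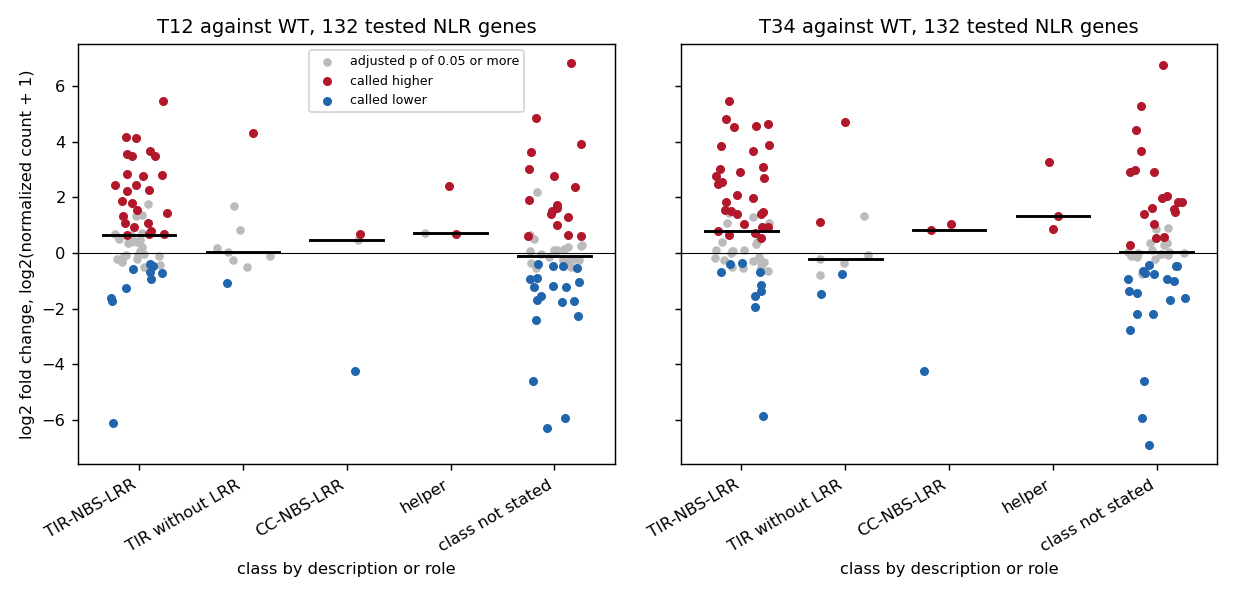
Log2 fold changes of the 132 tested NLR genes against WT, in T12 (left) and T34 (right), by class; each point is a gene, red and blue points passed an adjusted p under 0.05, and the black line is the class median. The TIR-NBS-LRR medians stand at 0.66 and 0.77, and the most negative values belong to AT1G63880.

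Helper NLRs act downstream of the sensors, and ADR1, ADR1-L1 and ADR1-L2 were higher in T34. ADR1-L3 had at most 2.55 normalized counts in any library and was not tested. The helpers NRG1.1 (AT5G66900) and NRG1.2 (AT5G66910), which lack these names in the annotation used, were called higher in both mutants. Their log2 fold changes were 0.61 to 0.69 in T12 and 0.82 to 1.03 in T34. ADR1 had normalized counts of 86.6, 35.1 and 76.5 in WT, 268, 345 and 398 in T12 and 539, 595 and 663 in T34. Every mutant library lay above every WT library, and ADR1 rose with log2 fold changes of 2.42 in T12 (SE 0.307, adjusted p = 0.000302) and 3.26 in T34 (SE 0.307, adjusted p = 4.32e-05); without WT replicate 2 they were 2.02 (adjusted p = 3.1e-05) and 2.86 (adjusted p = 4.11e-06). ADR1-L1 moved less, from 679.9, 795 and 627 in WT, 1054, 1197 and 1087 in T12 and 1191, 1302 and 1347 in T34, again without overlap between mutants and WT. Its log2 fold changes were 0.67 in T12 (SE 0.112, adjusted p = 0.00136) and 0.87 in T34 (SE 0.112, adjusted p = 0.000252). ADR1-L2 rose in T34, by 1.33 (SE 0.268, adjusted p = 0.00335), and was called in T34 only: its counts were 553, 432 and 538 in WT, 541, 966 and 1134 in T12 and 999.5, 1321 and 1541 in T34, and T12 replicate 1 lay within the WT range. The T12 value was 0.73 (SE 0.268, adjusted p = 0.0546), and the difference between T34 and T12, 0.59 (SE 0.268, adjusted p = 0.336), did not pass the test. Per kilobase of exon, ADR1-L2 went from 179 normalized counts in WT, the eighth highest member, to 454 in T34, behind AT5G45510 alone.

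CC sensors with a known role went different ways. RPM1, which detects effector action on RIN4, had counts of 95.8, 93.5 and 119 in WT, 328, 265 and 189.6 in T12 and 349, 279 and 231 in T34. No WT library reached a mutant one, and RPM1 rose with log2 fold changes of 1.31 in T12 (SE 0.224, adjusted p = 0.00159) and 1.46 in T34 (SE 0.224, adjusted p = 0.000725). RPP8, a receptor for downy mildew isolates, was high in every group, at 776, 935 and 1088 in WT, 757, 691 and 570.3 in T12 and 665, 504 and 523 in T34. It fell in T34, by -0.72 (SE 0.166, adjusted p = 0.00663); the T12 value of -0.47 (SE 0.166, adjusted p = 0.0496) lost its call without WT replicate 2, at -0.46 (adjusted p = 0.0684). RPP13, another downy mildew receptor, passed in neither mutant, with log2 fold changes of 0.28 and 0.10. SUMM2, which guards a MAP kinase cascade, stood at 83.5, 70.1 and 107 in WT, 112, 124 and 129 in T12 and 116, 123 and 143 in T34, and was called in T34 only, at 0.56 (SE 0.179, adjusted p = 0.0294) against 0.50 (SE 0.179, adjusted p = 0.0506) in T12. RFL1 had 11.7 to 16.6 in WT and 14.2 to 24.4 in the mutants and did not pass in either.

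TIR sensors with a known role were mostly raised. RPP1, a downy mildew receptor that binds its effector directly, had 231, 199 and 227 in WT, 1523, 1686 and 1552 in T12 and 1678, 1890.1 and 1976 in T34. Its libraries were tight within each group and far apart between mutants and WT, and RPP1 rose with log2 fold changes of 2.85 in T12 (SE 0.103, adjusted p = 8.35e-07) and 3.07 in T34 (SE 0.103, adjusted p = 5.89e-07). RPS6, which confers resistance to Pseudomonas syringae, had 454, 444 and 482 in WT, 895, 1449 and 1399.8 in T12 and 1309, 1727 and 1916 in T34 and log2 fold changes of 1.41 in T12 (SE 0.199, adjusted p = 0.000566) and 1.82 in T34 (SE 0.199, adjusted p = 0.000103). LAZ5, known from a cell death mutant, rose less: 264, 269 and 342 in WT, 486, 476 and 379 in T12 and 418, 435 and 413 in T34, with log2 fold changes of 0.62 in T12 (SE 0.138, adjusted p = 0.00656) and 0.54 in T34 (SE 0.138, adjusted p = 0.0108).

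Others in this group went down or stayed. WRR4, a receptor for white rust, had 84.1, 70.1 and 140.2 in WT, 11.4, 20.5 and 20.2 in T12 and 11.1, 19.4 and 35.2 in T34, so that no mutant library reached WT. It fell with log2 fold changes of -2.41 in T12 (SE 0.441, adjusted p = 0.00228) and -2.19 in T34 (SE 0.441, adjusted p = 0.00327). VICTR, whose variants affect root growth under a small molecule, stood at 217, 210.4 and 231 in WT, 132, 147 and 131 in T12 and 180.3, 152 and 185 in T34. It fell by -0.68 (SE 0.123, adjusted p = 0.00219) in T12 and -0.35 (SE 0.123, adjusted p = 0.0439) in T34. The T34 call was lost under 11 alternatives. TAO1, which contributes to recognition of a Pseudomonas effector, had 285, 316 and 307 in WT, 233, 278 and 306 in T12 and 254, 322 and 329 in T34 and passed in neither mutant. CHS1 and RLM1 were not tested; CHS1 had at most 1.71 normalized counts in any library and RLM1 at most 3.82.

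**Figure D2:**
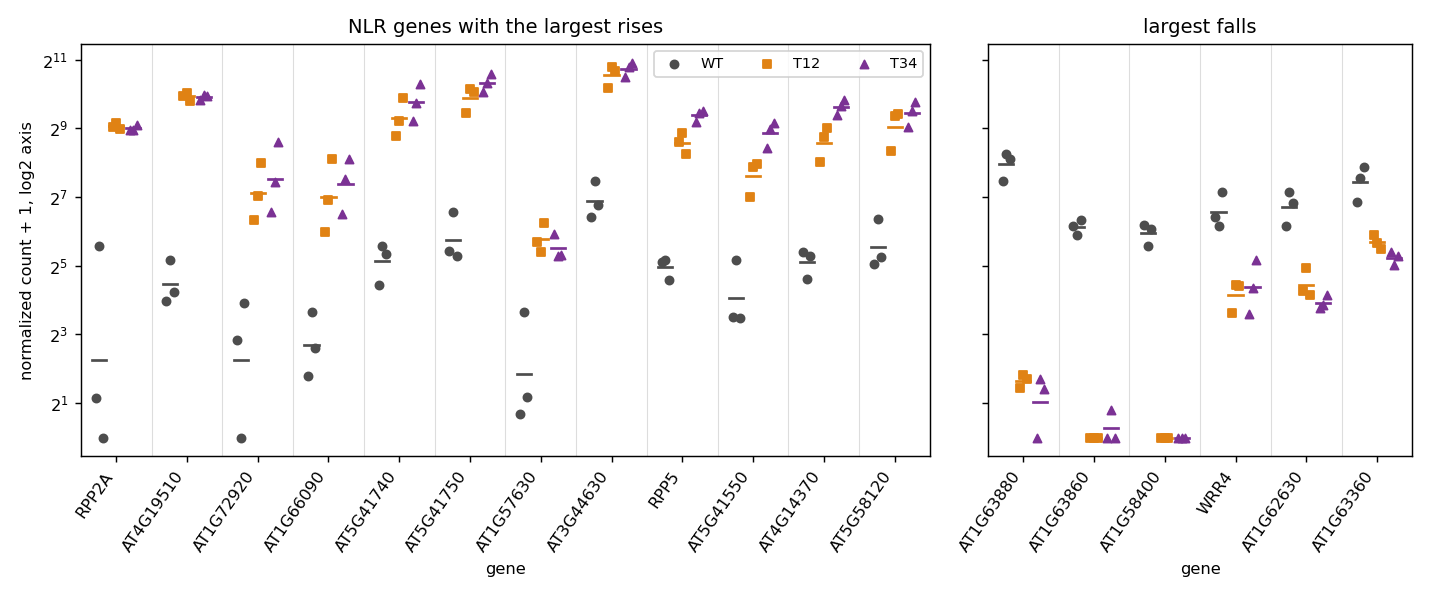
Normalized counts plus 1 on a log2 axis for the members with the largest rises (left) and falls (right); each point is a library, grey circles for WT, orange squares for T12 and purple triangles for T34, and bars are means on the log scale. Genes were shown only if the compared groups did not overlap, so the lack of overlap is how they were chosen. AT1G58400 had no read in 6 mutant libraries.

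The largest rises were in RPP2A and its neighbour AT4G19510. RPP2A is needed for resistance to a downy mildew isolate. Its normalized counts were 1.23, 46.7 and 0 in WT, 528, 572 and 508 in T12 and 498, 495 and 548 in T34. The WT values are 2, 4 and 0 reads, of which the 4 fell in WT replicate 2, so the WT level rests on 6 reads. Pooled by depth, T12 had 223 times the WT rate of reads (95% exact interval 102 to 607, counting error only) and T34 213 times (97.9 to 582). The fitted log2 fold changes were 6.82 in T12 (SE 1.13, adjusted p = 0.00134) and 6.76 in T34 (SE 1.13, adjusted p = 0.0012), and without WT replicate 2 they were 8.49 (adjusted p = 3.19e-07) and 8.43 (adjusted p = 2.59e-07). AT4G19510, described as a TIR-NBS-LRR gene, had 14.7, 35.1 and 17.8 in WT, 988, 1044 and 888 in T12 and 902, 994 and 982 in T34, which gave log2 fold changes of 5.46 in T12 (SE 0.262, adjusted p = 1.95e-06) and 5.44 in T34 (SE 0.262, adjusted p = 1.91e-06). Both genes sat at nearly the same level in all 6 mutant libraries.

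These genes form a cluster of 4 members. AT4G19520 rose as well, from 212, 199 and 274 in WT to 1114, 1713 and 1884 in T12 and 1356, 1809 and 2043 in T34, with log2 fold changes of 2.76 in T12 (SE 0.227, adjusted p = 2.57e-05) and 2.92 in T34 (SE 0.227, adjusted p = 1.53e-05). The fourth member, AT4G19530, lies head to head with AT4G19520, with starts 4463 bases apart, and went the other way in T34. Its counts were 461, 701 and 603 in WT, 475, 571 and 577 in T12 and 163, 235 and 299 in T34: T12 lay within the WT range and every T34 library lay below. It fell in T34 by -1.36 (SE 0.228, adjusted p = 0.00121) and did not pass in T12, at -0.11 (SE 0.228, adjusted p = 0.736). Of the 4 other tested genes among the 5 protein-coding genes on either side of RPP2A, 2 were called higher in T12 and 1 in T34, with log2 fold changes of 0.034 to 1.92 and -0.18 to 1.66.

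Several TIR-NBS-LRR genes on chromosome 5 stood among the 10 largest rises. AT5G41740 had 20.9, 46.7 and 39.5 in WT, 439, 591 and 942 in T12 and 592, 858 and 1256 in T34, and its log2 fold changes were 4.17 in T12 (SE 0.383, adjusted p = 4.54e-05) and 4.63 in T34 (SE 0.383, adjusted p = 2.14e-05). AT5G41750, directly beside it, had 41.8, 93.5 and 38.2 in WT, 700.2, 1127 and 1055 in T12 and 1066, 1279 and 1531 in T34, with 4.12 in T12 (SE 0.329, adjusted p = 2.2e-05) and 4.56 in T34 (SE 0.329, adjusted p = 1.03e-05). AT5G41550, also on chromosome 5, had 10.4, 35.1 and 10.2 in WT, 126, 235 and 250.1 in T12 and 342, 509 and 574 in T34. No WT library reached a mutant library in any of the 3. Its log2 fold changes were 3.56 in T12 (SE 0.463, adjusted p = 0.000349) and 4.80 in T34 (SE 0.463, adjusted p = 4.94e-05). These are the genes whose promoters share the 14-base run printed above. AT5G58120, further along, had 31.9, 81.8 and 37 in WT, 324, 658 and 675 in T12 and 521, 729 and 865 in T34 and log2 fold changes of 3.48 in T12 (SE 0.394, adjusted p = 0.000155) and 3.88 in T34 (SE 0.394, adjusted p = 6.68e-05). AT4G14370, on chromosome 4, had 41.1, 23.4 and 38.2 in WT, 257, 426 and 512 in T12 and 672, 800.1 and 897 in T34. It rose by 3.49 in T12 and 4.52 in T34, and all T34 libraries lay above all T12 libraries.

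AT1G66090 and AT1G57630, on chromosome 1, rose from very low levels. Of the 9 tested TIR genes without LRR, AT1G66090 was the one that rose in T12, and it and AT1G72950 were those that rose in T34. AT1G66090, described as a TIR-NBS gene, had 2.46, 11.7 and 5.1 in WT, 62.8, 119.9 and 272 in T12 and 90.1, 184 and 276 in T34, and rose with log2 fold changes of 4.31 in T12 (SE 0.641, adjusted p = 0.000739) and 4.70 in T34 (SE 0.641, adjusted p = 0.000368). AT1G57630, described as a putative RPP1-WsB protein, had 1 read in each WT library against 50.8, 41 and 74.6 normalized counts in T12 and 60.1, 38.1 and 38.5 in T34. Its pooled rate was 46.7 times that of WT in T12 (95% exact interval 15.8 to 228) and 37.9 times in T34 (12.8 to 186). The fitted log2 fold changes were 3.93 in T12 (adjusted p = 0.00176) and 3.66 in T34 (adjusted p = 0.00219), and without WT replicate 2 they were 4.84 (adjusted p = 1.07e-05) and 4.57 (adjusted p = 1.14e-05).

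A run of 9 members from AT1G72840 to AT1G72950 on chromosome 1 held 2 called higher in T12 and 4 in T34, with none lower; 23.1% and 25.2% of all genes were called higher. AT1G72920, described as similar to part of a disease resistance protein, had 6.14, 0 and 14 in WT, 78.8, 129.5 and 253 in T12 and 93.3, 172 and 389 in T34. All mutant values lay above WT, though they differed several-fold within a group, and the log2 fold changes were 4.86 in T12 (SE 0.937, adjusted p = 0.00304) and 5.29 in T34 (SE 0.937, adjusted p = 0.00163). Without WT replicate 2, which held no read of this gene, they were 3.74 (adjusted p = 0.00161) and 4.16 (adjusted p = 0.000773). AT1G72900 rose from 57.7, 93.5 and 57.4 in WT to 152, 294 and 262 in T12 and 197, 271 and 365 in T34. AT1G72910 was called in T34 only, at 2.98 (SE 0.853, adjusted p = 0.0189) against 2.20 (SE 0.853, adjusted p = 0.0666) in T12; without WT replicate 2 it was called in both, at 3.61 (adjusted p = 0.00706) and 2.83 (adjusted p = 0.0233). The TIR genes AT1G72870 and AT1G72890 of the same run did not pass, with values of -0.80 to -0.26, though without WT replicate 2 AT1G72870 was called lower in T34, at -1.04 (adjusted p = 0.0192).

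On chromosome 3, 7 of 10 tested members rose in T12 and none fell, where 23.4% of all tested genes of that chromosome were called higher and 16.2% lower. Besides RPP1, AT3G44630 and AT3G44670 stand near it. AT3G44630 had 84.1, 175 and 108 in WT, 1153, 1758 and 1616 in T12 and 1445, 1759 and 1921 in T34 and log2 fold changes of 3.66 in T12 (SE 0.262, adjusted p = 1.24e-05) and 3.85 in T34 (SE 0.262, adjusted p = 7.76e-06). AT3G44670 had 176, 245 and 201 in WT and 1020 to 1448 in the mutants. AT3G44400 rose less, at 0.93 in T12 and 1.40 in T34. The one called lower on this chromosome, AT3G14460, fell in T34.

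The cluster of RPP4, RPP5 and SNC1 on chromosome 4 was raised unevenly. Over all tested genes, 23.1% were called higher and 17.0% lower in T12, and 25.2% and 20% in T34. The cluster holds 9 members from AT4G16857 to RLM3, of which 6 rose and 1 fell in T12 and 6 rose and 2 fell in T34. RPP5, a downy mildew receptor, changed most, with counts of 33.2, 35.1 and 22.9 in WT, 385, 467 and 305 in T12 and 580.4, 701 and 724 in T34 and log2 fold changes of 3.62 in T12 (SE 0.206, adjusted p = 3.69e-06) and 4.43 in T34 (SE 0.206, adjusted p = 1.57e-06). All T34 libraries lay above all T12 libraries. SNC1, whose gain-of-function allele causes constitutive defence, had 393, 386 and 487 in WT, 1066, 1261 and 892 in T12 and 1424, 1558 and 1492 in T34, without overlap between the 3 groups, and rose by 1.34 (SE 0.142, adjusted p = 0.000105) in T12 and 1.83 (SE 0.142, adjusted p = 1.54e-05) in T34. RPP4, a downy mildew receptor as well, rose by 1.01 (SE 0.18, adjusted p = 0.00199) and 1.41 (SE 0.18, adjusted p = 0.000248). AT4G16920, AT4G16940 and AT4G16960 rose too, by 0.69, 1.45 and 2.25 in T12.

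Members interleaved with these fell or did not pass. AT4G16900, between SNC1 and RPP5, had 437, 491 and 507 in WT, 329.8, 318 and 322 in T12 and 299.7, 303 and 295 in T34, and fell with log2 fold changes of -0.56 in T12 (SE 0.0945, adjusted p = 0.00146) and -0.67 in T34 (SE 0.0945, adjusted p = 0.000436). RLM3, a TIR gene without LRR linked to resistance to fungi, closes the cluster and had 999.9, 1484 and 1532 in WT, 1574, 1418 and 1094 in T12 and 726, 774 and 819 in T34. It did not pass in T12, at 0.034 (SE 0.185, adjusted p = 0.898), and fell in T34, by -0.77 (SE 0.185, adjusted p = 0.0084). AT4G16857 passed in neither, at 0.35 and -0.25, and without WT replicate 2 was called higher in T12, at 0.49 (adjusted p = 0.0215). Reads that match several members of such a tandem array may be split between them or lost, and how the authors treated such reads is not given in the sources used here.

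**Figure D3:**
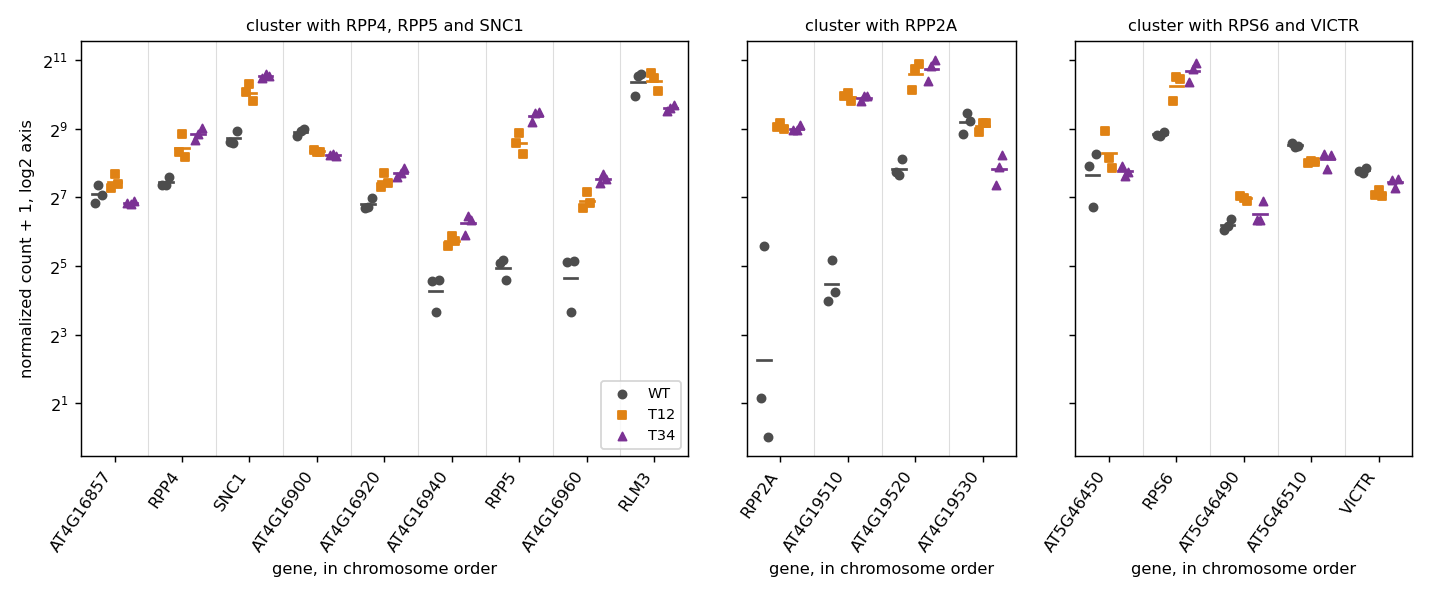
Normalized counts plus 1 on a log2 axis for members of 3 clusters, in chromosome order; points are libraries, marked by group as in the legend, and bars are means on the log scale. RPP5 and SNC1 are raised beside a lower AT4G16900, RPP2A and its 2 neighbours are raised while AT4G19530 is lower in T34, and RPS6 is raised beside a lower VICTR.

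Receptor pairs were followed because some NLRs work as sensor and executor from head-to-head genes. RPS4 and RRS1, the best known such pair, start 27 bases apart in the annotation (chr5:18326176-18326202, plus strand shown), and these bases are:
RPS4-RRS1: tgagatttgagtggttgaatgtccaat

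RPS4 had 369, 327 and 400.2 in WT, 330.4, 309.7 and 270.3 in T12 and 290.2, 305 and 340.0 in T34 and did not pass in either mutant, at -0.27 and -0.23; without WT replicate 2 it was called lower in T12, at -0.34 (adjusted p = 0.0377). RRS1, which carries a WRKY domain as the decoy, had 419, 409 and 422 in WT, 350.4, 290.5 and 274 in T12 and 302, 297 and 295 in T34 and fell with log2 fold changes of -0.46 in T12 (SE 0.111, adjusted p = 0.00982) and -0.48 in T34 (SE 0.111, adjusted p = 0.00653); no mutant library reached WT. The cluster around them holds 7 members, of which 4 were tested, and RRS1 was the one called. Of all tested genes, 40.2% were called in T12 and 45.2% in T34. AT4G36140 and AT4G36150, whose annotated ends overlap by 35 bases, both rose. AT4G36140 had 96.4, 152 and 79 in WT, 641, 586 and 494 in T12 and 624, 592 and 560.2 in T34, with log2 fold changes of 2.43 and 2.48, and AT4G36150 had 1.07 and 1.55. AT5G47250 and AT5G47260, 525 bases apart, rose as well, by 1.89 and 3.02 in T12 and 2.04 and 2.89 in T34. AT5G47260 had 5, 1 and 3 reads in WT. AT4G19520 and AT4G19530, described above, had opposite calls in T34.

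RPS6 and VICTR share a cluster of 5 members on chromosome 5. RPS6 rose, VICTR and AT5G46510 fell in both mutants, AT5G46490 rose in T12 alone by call, at 0.79 against 0.33 in T34, and AT5G46450 passed in neither. The share of all tested genes called was 40.2% in T12 and 45.2% in T34. The T34 call of VICTR was lost under 11 alternatives, as given above.

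Chromosome 1, with 46 of the 132 tested members, held 17 of the 31 called lower in T12 and 16 of 31 in T34. All 5 members that reached a count of 10 in WT libraries alone, and so had to be lower, are among them. Of all tested genes on that chromosome, 18.4% were called lower in T12 and 19.7% in T34. There were 4 members with at least 10 normalized counts in each WT library and at most 3 reads in all 6 mutant libraries together: AT1G15890, AT1G58400, AT1G63350 and AT1G63860. That is 3.45% of the 116 members that could show this, against 14 of 18387 nuclear genes with these members included, or 0.0761%. These 4 members all lie on chromosome 1. In the authors' deposited results AT1G63860 was called lower in both mutants. AT1G15890, AT1G58400 and AT1G63350 were called in neither, at adjusted p of 0.0505 to 0.148 by the authors' test. AT1G58400 had 71.2, 46.7 and 66.3 in WT, from 172 reads, and no read in any mutant library. With a floor of 3 reads over a group it was at least 104-fold lower in T12 and at least 77.8-fold lower in T34, or 117-fold and 87.0-fold without WT replicate 2. AT1G15890 had 22.1, 35.1 and 16.6 in WT and no mutant read, at least 41.7-fold lower in T12 and 31.1-fold in T34. AT1G63350, a CC-NBS-LRR gene, had 16.6, 11.7 and 29.3 in WT and no mutant read, at least 32.6-fold lower in T12 and 24.3-fold in T34.

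AT1G63860, a TIR-NBS-LRR gene, had 70, 58.4 and 79 in WT, no read in T12 and 1 read in T34. It was at least 117-fold lower in T12, and the WT rate was 275 times that of T34 (95% exact interval 48.8 to 10926, counting error only). AT1G63880, described as disease resistance protein RML1B, lies nearby and had 177, 304 and 275 in WT, 1.71, 2.56 and 2.24 in T12 and 0, 2.24 and 1.67 in T34. It had 531 reads in WT against 11 in T12 and 5 in T34. Its log2 fold changes were -6.29 in T12 (SE 0.485, adjusted p = 1.82e-05) and -6.91 in T34 (SE 0.485, adjusted p = 8.99e-06). AT1G63880 met the filter through WT libraries alone and so had to be lower, which means these p-values do not test the direction. Most neighbouring genes were not as low. Of 7 tested genes around AT1G63860, 1 was called higher and 3 lower in T12, with log2 fold changes between -1.21 and 1.89; around AT1G58400, 2 of 6 were higher and 1 lower, between -0.47 and 3.49. Around AT1G15890, 1 of 8 neighbours was as low, at -4.60. The parental sequence at these loci was not tested. Without WT replicate 2, these 5 members no longer met the filter and could not be tested, and WT replicates 1 and 3 held 16.6 to 275 normalized counts of them.

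Other falls were partial. AT1G62630 had 70.6, 140.2 and 112 in WT, 18.3, 29.5 and 16.8 in T12 and 12.7, 13.4 and 16.7 in T34, with log2 fold changes of -2.26 in T12 (SE 0.32, adjusted p = 0.000572) and -2.78 in T34 (SE 0.32, adjusted p = 0.000138). AT1G63360, the neighbour of AT1G63350, had 115, 187 and 232 in WT, 58.2, 50 and 43.7 in T12 and 41.1, 31.4 and 37.7 in T34 and fell by -1.74 (SE 0.264, adjusted p = 0.00081) and -2.20 (SE 0.264, adjusted p = 0.000177). AT1G58807 and AT1G59124 share the description RF45, and AT1G58848 and AT1G59218 share the description RDL6. All 4 fell in both mutants, with log2 fold changes of -1.72 to -1.06 in T12 and -1.45 to -0.75 in T34. Reads of each such pair cannot be assigned to a copy with certainty, so the values of the copies are not separate evidence.

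T34 and T12 were also compared directly. No member passed as higher in T34 and 1, AT4G19530, passed as lower, with a log2 fold change of -1.25 (SE 0.228, adjusted p = 0.0305). This background was low, with 0.858% of all tested genes called higher and 1.52% lower, 2.38% in all. At an unadjusted p under 0.05, 21 of 132 members differed, 15.9%, near the 15.4% of all tested genes. By size, 83 members were above 0 and 46 below, where all tested genes split 10577 to 10287, with a median of 0.15 beside 0.005 over all genes. T34 libraries all lay above T12 libraries for 28 members, where the share over all tested genes was 17.3%, and all below for 10, where it was 15.8%.

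The count in this comparison depends on the method. With edgeR or DESeq2 on the recovered reads, 5 members were higher (ADR1, AT4G14370, RPP5, AT4G16960 and AT5G41550) and 3 lower (AT4G16857, RLM3 and AT4G19530). Of all genes, edgeR called 2.95% higher and 3.61% lower and DESeq2 3.31% and 4.4%, so these counts of members lie near the background. Without WT replicate 2, which enters the shared estimate of the spread, limma gave those same 8 and also others as higher, among them AT1G58410 and AT4G19050, in a setting where 4.34% of all genes were called higher. ADR1, for instance, had 0.84 (SE 0.307, adjusted p = 0.223) with all libraries and 0.84 (adjusted p = 0.0127) without that one.

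Partners of the receptors were taken as a list of 23 genes, of which 22 were in the tables and all 22 were tested; BON1 was not analysed here. In T12, 12 were called higher and 3 lower, 15 of 22 beside 40.2% of all genes, and in T34, 11 higher and 3 lower, 14 of 22 beside 45.2%. The shares of all genes called higher and lower were 23.1% and 17.0% in T12 and 25.2% and 20% in T34. Signalling nodes of TIR receptors rose: EDS1 had 281, 210.4 and 239.6 in WT, 626, 595 and 474 in T12 and 731, 622 and 574 in T34, and log2 fold changes of 1.21 in T12 (SE 0.155, adjusted p = 0.00032) and 1.40 in T34 (SE 0.155, adjusted p = 0.000113). PAD4, an EDS1 partner, had 75.5, 70.1 and 52.3 in WT, 252, 296 and 219.8 in T12 and 257, 292 and 333 in T34, and rose by 1.94 (SE 0.182, adjusted p = 4.97e-05) and 2.15 (SE 0.182, adjusted p = 2.4e-05). SAG101, the other partner, rose by 0.82 (SE 0.153, adjusted p = 0.00224) in T34, and its T12 value of 0.45 (SE 0.153, adjusted p = 0.0436) did not hold under most alternatives. EDS1B did not pass, at 1.81 (adjusted p = 0.101) and 2.12 (adjusted p = 0.0569), with 0, 11.7 and 1.27 in WT, where 11.7 is 1 read, and 8.56 to 15.1 in the mutants. NDR1, a membrane protein that several CC receptors need, had 19.7, 11.7 and 15.3 in WT, 74.2, 123 and 128 in T12 and 108, 127 and 163 in T34, and rose with log2 fold changes of 2.71 in T12 (SE 0.282, adjusted p = 9.23e-05) and 3.02 in T34 (SE 0.282, adjusted p = 4.08e-05).

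The chaperone complex that stabilises NLR proteins split. SGT1A had 125, 140.2 and 141 in WT, 831, 1402 and 1102 in T12 and 921, 1353 and 2011 in T34 and rose by 2.99 (SE 0.273, adjusted p = 4.37e-05) and 3.32 (SE 0.273, adjusted p = 2.07e-05). HSP90.2 had 2429 ± 277 in WT and 8202 ± 509 and 8377 ± 2061 in T12 and T34 (SD, n = 3), and rose by 1.76 and 1.77. SGT1B and RAR1 did not pass, at -0.18 and -0.013 in T12.

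Guarded proteins showed no common direction. RIN4, watched by RPM1, did not pass, at -0.11 and -0.13. PBS1, a guarded kinase, rose in T12 by 0.49 (SE 0.117, adjusted p = 0.00907) and in T34 by 0.32 (SE 0.117, adjusted p = 0.0474). The T34 call of PBS1 was lost under 12 alternatives. PBL2, the kinase decoy of the receptor ZAR1, had 141, 175 and 136 in WT, 382, 414 and 451 in T12 and 503, 558 and 631 in T34, and rose by 1.46 and 1.90, while the pseudokinases ZED1 and RKS1 did not pass.

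Negative regulators and other partners moved both ways. CPR1, an F-box protein that promotes turnover of SNC1, had 653, 619 and 695 in WT, 557, 408 and 407 in T12 and 492, 397 and 367 in T34, and fell by -0.53 (SE 0.155, adjusted p = 0.0223) and -0.66 (SE 0.155, adjusted p = 0.00753). AT1G04300 fell by -0.78 and -0.70. SRFR1, a repressor of TIR receptor responses, rose by 0.55 and 0.64. BAP1, the partner of the copine BON1, had 23.3, 46.7 and 19.1 in WT, 127, 215 and 451 in T12 and 225, 377 and 611 in T34, and NUDT7, a hydrolase that restrains EDS1 signalling, had 197, 222 and 187 in WT, 1867, 1894 and 1525 in T12 and 1873, 2007 and 2304 in T34. Both rose, with log2 fold changes of 3.02 and 3.12 in T12 and 3.71 and 3.34 in T34. TPR1, a corepressor that works with SNC1 and is counted here as a partner, fell by -0.36 (SE 0.0815, adjusted p = 0.00728) in T12 and by -0.25 (SE 0.0815, adjusted p = 0.0331) in T34. SAUL1, an E3 ligase, rose in T12 by 0.78 (SE 0.218, adjusted p = 0.0185) and its T34 value of 0.53 (SE 0.218, adjusted p = 0.0754) did not pass. No gene of the list was called between T34 and T12 with all libraries.

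**Figure D4:**
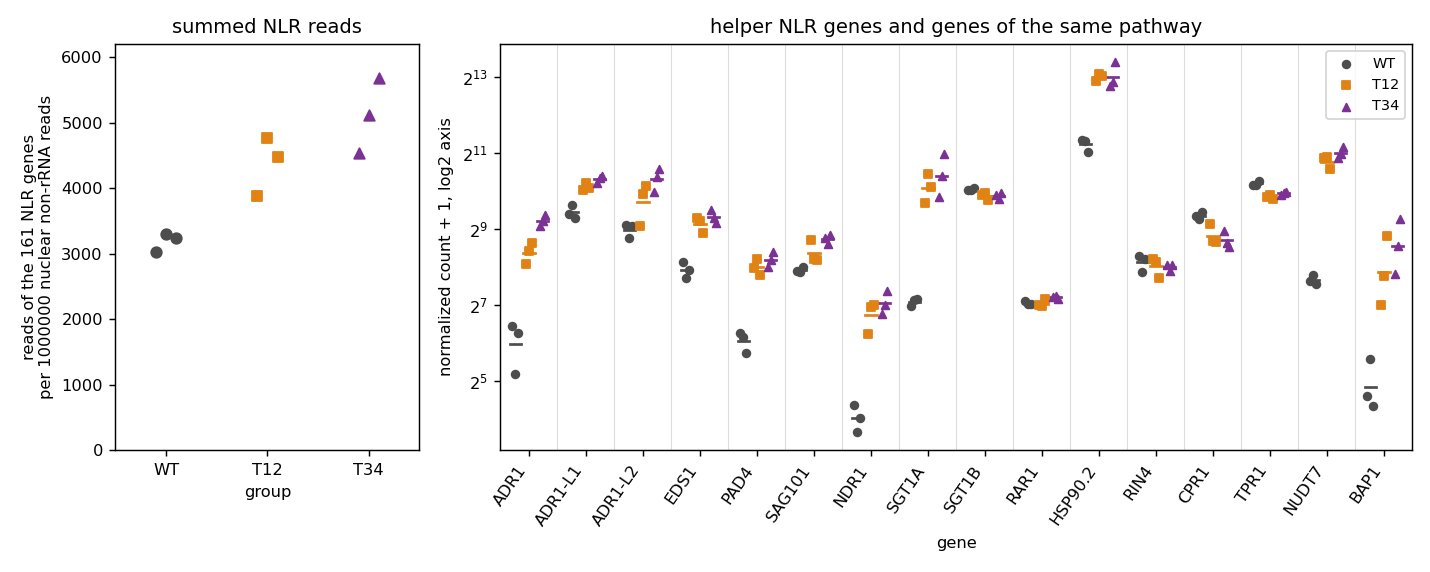
Left, reads of the 161 NLR genes per 1000000 nuclear non-rRNA reads in each library; right, normalized counts plus 1 on a log2 axis for the ADR1 helpers and 13 genes of the same pathway, with points for libraries and bars for means on the log scale. Summed NLR reads are 3025 to 3293 in WT and 3879 to 5673 in the mutants, NDR1, SGT1A and NUDT7 are raised, and RAR1 and SGT1B stay near WT.

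Levels within the family spanned a wide range. Per kilobase of exon, the 132 tested members had a median of 29.2 normalized counts in WT, 43.4 in T12 and 47.4 in T34. AT5G45510, described as a probable disease resistance protein, was highest in each group, at 408, 490.0 and 494. RLM3 and RPP8 followed in WT, at 374 and 256, and stood 15th and 23rd in T34.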

How the data were processed

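RNA was sequenced from 9 libraries of whole seedlings, 3 each of WT, T12 and T34. The submitters' processing notes name HISAT2 2.1.0 and cutadapt 1.8.1, DESeq2 1.22.2, featureCounts 1.6.2 and the build TAIR10; how strand and multi-mapping reads were handled is not given in the sources used here. The authors deposited a table for T12 and one for T34 against WT. Per the file headers these hold a normalized count per library, a signal made by the authors by dividing read counts by a size factor, with a log2 fold change, a test statistic (score) and p-values. From the steps of the deposited signal, 100% of values came out as whole reads at a tolerance of 0.01.

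Groups were compared with limma-trend (R 4.3.3, limma 3.58.1) on log2(normalized count + 1), with all 9 libraries in 1 fit, genes reaching 10 in 3 or more libraries, and Benjamini-Hochberg adjustment over 20871 genes at 0.05. Log2 fold changes are on that scale, which shrinks changes of low genes. Where WT replicate 2 held no read, it can also enlarge them. AT1G65850 had 19.0, 0 and 16.6 normalized counts in WT and a T12 log2 fold change of 1.33, against -0.084 without that library. Errors are standard errors (SE) or, for counts, standard deviations (SD), with n = 3 per group. A count test planned for raw counts became an alternative on recovered reads, with edgeR 4.0.16 and DESeq2 1.42.0. The procedure was tested on simulated data. In the authors' deposited tables, 146 members had an adjusted p-value in T12 and 151 in T34. Those under 0.05 were 47 higher and 27 lower in T12, and 55 higher and 31 lower in T34. Among the 132 members tested here they were 47 and 27 in T12 and 55 and 29 in T34. The share of all genes called in those tables was not counted.

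Besides receptors of known role, the text names for each comparison the 10 largest rises and 6 largest falls among called members with a mean of at least 20 and no overlap between groups. Of all 20871 tested genes, every T12 library lay above every WT library for 5898 and below for 4801. For T34 these counts were 6440 and 5242. Among the 132 tested members they were 55 and 34 in T12 and 59 and 33 in T34. Clusters are members with at most 3 other protein-coding genes between neighbours, and those of 4 or more are described. Order, strand, exon lengths and promoters come from RefSeq's TAIR10.1 annotation; all 161 members matched by locus. Members without a symbol there are called by locus. The values of 1 receptor of known role are not reported here. The members and lists were chosen with earlier results of these data known. Counting intervals and floors cover counting error only.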

Additional observations from a re-analysis of the deposited data

Results flagged for a closer look

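AT4G19530 was the member whose level differed between the mutant populations by the test of that difference. T34 against T12 gave a log2 fold change of -1.25 (SE 0.228, adjusted p = 0.0305) by limma-trend, adjusted over all tested genes, with all T34 libraries below all T12 libraries. The call was lost when any T12 library, or T34 replicate 1 or 2, was left out; few genes were called in those settings, 0.0673% to 0.549% of those tested.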

How the results depend on the processing

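The calls against WT held under most alternatives. Leaving out each library in turn gave 40 to 51 members higher and 21 to 31 lower in T12, and 47 to 57 higher and 23 to 30 lower in T34. Over all tested genes these ranges were 3773 to 5743 and 2564 to 4438 in T12. In T34 they were 4162 to 6138 and 3168 to 5018. Pathway genes called ranged from 13 to 15 in T12 and from 12 to 16 in T34. Without both libraries of unclear label the members lower in T12 went from 31 to 19, where all genes lower went from 3555 to 2997; the 5 members that reached a count of 10 in WT alone could no longer be tested there. Between T34 and T12, leaving out a library gave 0 to 8 members higher, 0 to 3 lower and 0 to 1 pathway gene. There, edgeR and DESeq2 on recovered reads each gave 5 higher and 3 lower, where limma gave 0 and 1; the cause was not tested. Upper quartile factors and scaling to the nuclear total moved the median of all genes in T12 from 0.062 to -0.044 and -0.086. With them, 45 and 42 members were higher and 34 and 36 lower in T12. Of all genes, 4210 and 3991 were then higher and 4649 and 5081 lower in T12. Of 85 called values of named genes, 75 kept their call under every alternative that could test them, 10 lost it at least under 1 and none changed sign. Those lost included SUMM2, VICTR and LAZ5 in T34, RPP8 in T12, and CPR1, SAG101, PBS1 and TPR1 of the pathway list. No paired analysis was possible because the libraries carry no replicate numbers shared between groups. Depth limits the low members: 29 were not tested, and WT replicate 2 resolves nothing under 11.7 normalized counts.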
